A study of Mus musculus with 8 samples.

Results

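Genes of glycolysis and of the response to low oxygen were examined in fibroblasts of the mouse colon that had been sorted by their surface CD90. The set named 33 genes: 17 glycolytic enzymes, 8 genes that set how pyruvate and fructose phosphate are routed (called flux switches here), 4 genes of oxygen sensing and 4 hypoxia targets. A row of the array was used where the platform annotation named 1 gene and that gene was in the set, and where several rows did, the row with the highest mean over all 8 arrays was kept. This gave 30 genes of the 30748 named on the array. Gpi1, Eno1 and Pfkfb2 had no row that named them alone and were not analysed here. Of the 30, 28 passed the filter on dim rows and were tested among 17232 genes; Aldoc and Car9 did not pass.

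The cells were colon fibroblasts of wild-type C57BL/6J mice, negative for Epcam, CD45 and CD31 and positive for gp38 (podoplanin), with no treatment named. They were split into a CD90-negative population (samples 13, 15, 17 and 19) and a CD90-positive population (samples 14, 16, 18 and 20), 4 arrays each. Both populations were taken from 4 mice, but the labels tie no sample to its mouse. The p-values therefore rest on the scatter among these 8 samples. Each value is log2 expression as deposited, means are given ± SD (n = 4 in each population), and every difference is CD90-positive minus CD90-negative. Values per sample follow the order of the sample numbers above.

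Glycolysis splits glucose into pyruvate in the cytosol, with the phosphofructokinase and pyruvate kinase steps as its main control points, and lactate dehydrogenase turns pyruvate into lactate. Pyruvate dehydrogenase sends pyruvate to the mitochondria instead, and the PDK kinases switch it off. When oxygen is low, the EGLN prolyl hydroxylases stop marking the alpha subunits HIF1A and EPAS1 (HIF-2 alpha) for breakdown, and these factors bind hypoxia response elements at many glycolytic genes and at targets such as Ndrg1 and Car9. The colon wall is known for a fall in oxygen from the tissue towards the lumen.

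The sort was visible in the RNA and the fibroblast genes were bright. Thy1, which codes for CD90, was at 5.52 ± 0.046 without and 7.69 ± 0.47 with surface CD90 (limma adjusted p = 8.14e-05). The podoplanin gene Pdpn was at 13.17 ± 0.2 and 13.2 ± 0.22 (limma adjusted p = 0.866). Epcam, at 8.06 ± 0.83 and 8.19 ± 0.83, was not at floor in either population, while Ptprc (CD45) was under the filter and Pecam1 (CD31) at 6.24 ± 0.34 and 6.59 ± 0.51, with means under the negative controls and 3 CD90-positive samples (7.01, 6.69 and 6.81) slightly over those of their own arrays. Of other lists, smooth muscle had 4 of 7 tested genes higher and 2 lower (Acta2 at -2.13), enteric neuron 3 of 3 tested higher and leukocyte 3 of 4 higher, and of 6 fibroblast genes 2 were higher (Dcn at 0.75) and 1 lower. Of 8 measured neuron genes 5 were under the filter, Ret and Uchl1 lay under the negative controls on both sides, and Stmn2, higher by 4.7, was the one that rose above them. All 7 measured leukocyte genes averaged under the negative controls over all 8 samples. The means of the 3 that rose lay under them on both sides. Lyz2, higher by 1.05 without passing (limma adjusted p = 0.067), was at 7.11 and 7.91 in CD90-positive samples 16 and 20. Both values lay over the negative controls of their own arrays, while samples 14 and 18, at 5.89 and 6.47, lay under theirs. Per array, the median cluster was at 5.3 to 5.41 and the median negative control at 6.58 to 6.84. Aldoc, Car9 and Pdk1 lay below the negative controls throughout, so little signal backs their values. Samples 13 and 14 held far more Xist, the RNA of X chromosome inactivation, at 16.16 and 16.27, than the others, at 5.89 to 9.32. Deposited values ran up to 19.85, past the log2 ceiling of 16 of a 16-bit scan, and every fold given is on that scale. The number of arrays limits the precision.

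Of the 28 tested members, 9 were lower and 3 higher in the CD90-positive population at a limma adjusted p under 0.05, together 42.9%. Of all genes tested, 29.6% passed, 15.7% lower and 14.0% higher. The members' median difference was -0.1 and that of all genes -0.014. The largest falls belonged to Pdk3, Epas1, Pkm and Pfkp, and the largest rises to Ndrg1, Pdk4 and Pfkfb4. The populations did not overlap in 8 members that lay lower and 3 that lay higher, against 17.3% and 14.9% of all genes, or 32.2% in either direction. In a bulk sample, fewer cells with a transcript and less of it in each cell cannot be told apart.

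**Figure D1:**
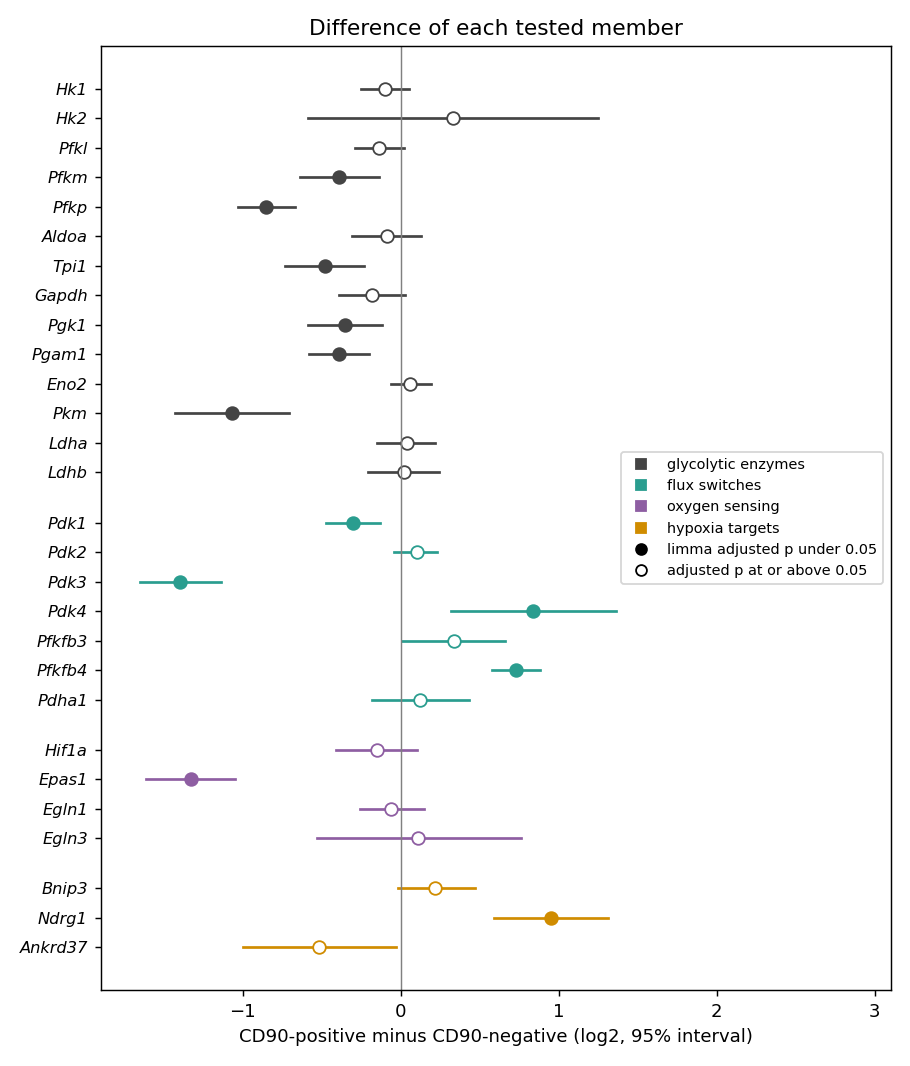
Difference between the populations for each of the 28 tested genes, CD90-positive minus CD90-negative on the log2 axis, with 95% intervals from limma; filled points passed the adjusted threshold. All 6 glycolytic enzymes past the threshold lie left of 0, from -0.35 for Pgk1 to -1.07 for Pkm, while the flux switches lie on both sides.

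The enzymes of glycolysis moved in 1 direction where they moved. Of 14 tested enzymes, 6 fell, 0 rose and 8 did not pass, so 42.9% fell against 15.7% of all genes tested. The list's median difference was -0.16, and 10 of its 14 differences (71.4%) were below 0, as were 52.3% of those of all genes. This lean was not particular to the enzymes. Of 15 tested citrate cycle genes 86.7% lay below 0, and of 7 genes of the pyruvate dehydrogenase complex and its phosphatases 85.7%. The share was 28.6% for the flux switches and 25% for the tested glucose and lactate transport genes. The 6 that fell were Pfkm, Pfkp, Tpi1, Pgk1, Pgam1 and Pkm, which act from the phosphofructokinase step to the last step. Of the cell cycle genes 3 of 5 tested fell and 0 rose, with Mki67 at -2.12. The mean of the 6 measured lay at 7.35 to 7.84 and at 6.79 to 7.16. Cdk1, which was among those that fell, lay under the negative controls on both sides. Pcna, the brightest of the list, was at 12.9 ± 0.02 and 13.05 ± 0.056, higher without passing (limma adjusted p = 0.0665). The part of the cell cycle genes in the enzymes' values was not tested.

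Pkm codes for the muscle-type pyruvate kinase, which makes pyruvate and ATP in the last step. It was at 11.18, 10.53, 11.1 and 11.01 in the CD90-negative samples and at 9.95, 9.58, 9.93 and 10.07 in the CD90-positive samples. Every CD90-positive value lay under every CD90-negative one, and samples 15 and 16 were the lowest of their populations. Pkm fell from 10.96 ± 0.29 to 9.88 ± 0.21, a difference of -1.07 (SE 0.16) or 2.1-fold (limma adjusted p = 0.00108).

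Pfkp codes for the platelet-type phosphofructokinase, one of 3 isozymes of the first committed step. Its values were 11.14, 10.88, 10.85 and 10.99 without CD90 and 10.14, 10.14, 10.01 and 10.18 with it. The groups lay apart, and the CD90-positive samples lay close together. The difference was -0.85 (SE 0.079), or 1.8-fold, with means of 10.97 ± 0.13 and 10.12 ± 0.072 (limma adjusted p = 8.11e-05). Pfkm, the muscle-type isozyme, was at 8.08, 8, 7.84 and 7.85 against 7.86, 7.4, 7.48 and 7.46. Sample 14 overlapped the CD90-negative samples and the other CD90-positive ones did not. Pfkm fell by 0.39 (limma adjusted p = 0.0282), but lost its call when sample 13, 15, 16, 18 or 20 was left out (limma adjusted p = 0.0608 to 0.0769). Pfkl, the liver-type isozyme, was at 7.17 ± 0.076 and 7.03 ± 0.09, a difference of -0.14 with a 95% interval of -0.29 to 0.02 (limma adjusted p = 0.185).

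Of the enzymes between phosphofructokinase and pyruvate kinase, Tpi1, Pgk1 and Pgam1 fell, and Aldoa, Gapdh and Eno2 did not pass. Tpi1, the triosephosphate isomerase gene, was at 12.44, 12.16, 12.55 and 12.52 in the CD90-negative samples and at 11.99, 11.74, 11.94 and 12.11 in the CD90-positive ones. The closest values, sample 15 and sample 20, were 12.16 and 12.11, so the groups barely cleared each other. Tpi1 fell by 0.48 (SE 0.11; limma adjusted p = 0.0115). Pgam1, a phosphoglycerate mutase gene, was at 11.21, 11.06, 11.32 and 11.2 against 10.94, 10.67, 10.74 and 10.86. All CD90-positive samples were lower, and Pgam1 fell by 0.39 (SE 0.084; limma adjusted p = 0.00779).

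Pgk1 codes for phosphoglycerate kinase, which makes the first ATP of the pathway. By its brightest row it was at 10.27, 9.98, 10.18 and 9.96 against 9.84, 9.56, 9.68 and 9.9, with no overlap (-0.35, SE 0.1, limma adjusted p = 0.0321). That row carries a chromosome 12 identifier, while the gene lies on chromosome X, so it may read a copy of the gene. The row of chromosome X gave 9.01 ± 0.13 and 8.81 ± 0.071, a difference of -0.21 that did not pass (limma adjusted p = 0.0882; a choice made after seeing the data). Without sample 13, 16, 17 or 18 the brightest row did not pass either (limma adjusted p = 0.0663 to 0.0835). Signals of Pgam1 and Gapdh are uncertain too, because further rows name each of them together with another gene.

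Other enzymes did not pass the test. Gapdh, the glyceraldehyde phosphate dehydrogenase gene often used as a reference, was at 14.34, 14.03, 14.32 and 14.21 against 14.09, 13.89, 14.16 and 14.04. Its difference was -0.18 with a 95% interval of -0.39 to 0.03 (limma adjusted p = 0.179). The aldolase gene Aldoa was at 7.84 ± 0.19 and 7.75 ± 0.08, and the hexokinase gene Hk1 at 7.16 ± 0.083 and 7.06 ± 0.068. Eno2, an enolase gene known from neurons, was at 7.46 ± 0.048 and 7.53 ± 0.04. Aldoc, the aldolase known from brain, was at 4.55 to 4.82 over all 8 samples.

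The lactate dehydrogenase genes stayed close between the populations. Ldha, whose subunit favours lactate formation, was at 12.45, 12.31, 12.37 and 12.41 in CD90-negative and 12.22, 12.5, 12.45 and 12.51 in CD90-positive samples. The ranges overlapped and sample 14 was the lowest of all. The difference was 0.04 with a 95% interval of -0.15 to 0.22 (limma adjusted p = 0.781), and that of Ldhb, the heart-type subunit, was 0.02 with an interval of -0.21 to 0.24 (limma adjusted p = 0.927). With each array centred on its median these differences were -0.01 and -0.03, so they have no settled sign.

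**Figure D2:**
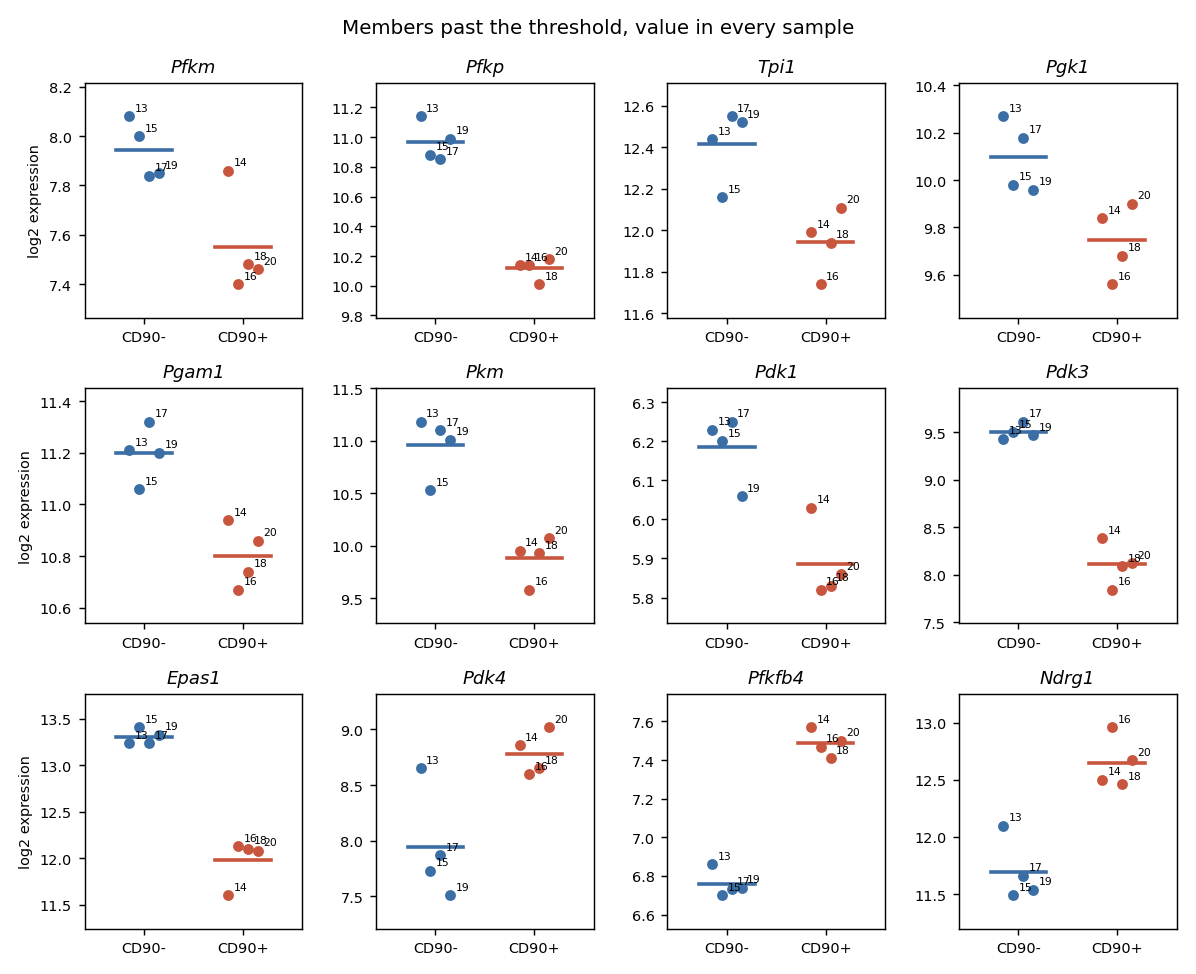
Log2 expression of the 12 members past the threshold in every sample, numbered as in the labels, with the population mean as a bar; each panel has its own scale, which does not start at 0. The 9 genes that were lower in CD90-positive samples come first, and Pdk4, Pfkfb4 and Ndrg1, which were higher, come last; samples overlap in Pfkm and Pdk4.

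RNA of the genes at the switch between lactate and mitochondria differed by kinase. Of 7 tested flux switches, 2 rose, 2 fell and 3 did not pass. That is 28.6% in each direction, where 14.0% of all genes tested rose and 15.7% fell. Pdk3, a pyruvate dehydrogenase kinase on the X chromosome, was at 9.43, 9.5, 9.61 and 9.47 in the CD90-negative samples and 8.38, 7.84, 8.09 and 8.12 in the CD90-positive ones. The groups lay a full unit apart at their nearest samples. Pdk3 fell from 9.5 ± 0.08 to 8.11 ± 0.22, by 1.4 (SE 0.11) or 2.63-fold (limma adjusted p = 3.02e-05). Without samples 13 and 14 the difference was -1.51 (limma adjusted p = 4.11e-05).

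Pdk4, the kinase known to follow fasting and fatty acid use, went the other way. It was at 8.65, 7.73, 7.87 and 7.51 against 8.86, 8.6, 8.65 and 9.02. Sample 13 reached the lower CD90-positive samples, and the other CD90-negative ones lay below them all. Pdk4 rose by 0.84 (SE 0.23; limma adjusted p = 0.0234), and the call was lost when sample 15, 17, 19 or 20 was left out (limma adjusted p = 0.059 to 0.0659). Pdk1, a kinase gene known as a target of HIF1A, was at 6.23, 6.2, 6.25 and 6.06 against 6.03, 5.82, 5.83 and 5.86, all below the negative controls. The groups nearly touched at samples 19 and 14, and Pdk1 fell by 0.3 (limma adjusted p = 0.0152). Pdk2 was at 7.4 ± 0.058 and 7.49 ± 0.054; its populations did not overlap, but the difference of 0.1 did not pass (limma adjusted p = 0.26). Pdha1, which codes for the subunit that these kinases phosphorylate, was at 8.87 ± 0.21 and 8.99 ± 0.21 (limma adjusted p = 0.536).

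The PFKFB enzymes make and break fructose 2,6-bisphosphate, the activator of phosphofructokinase. Pfkfb4 was at 6.86, 6.7, 6.73 and 6.74 without CD90, near the negative controls, and at 7.57, 7.47, 7.41 and 7.5 with it. No sample crossed over, and the spread within each population was small. Pfkfb4 rose by 0.73 (SE 0.065) or 1.66-fold (limma adjusted p = 5.88e-05), opposite in sign to Pfkp and Pfkm. Pfkfb3 was at 8.09, 7.56, 8.07 and 7.97 against 8.28, 8, 8.5 and 8.26. Sample 16 overlapped the CD90-negative samples, and the difference of 0.34 did not pass (limma adjusted p = 0.11). It passed with array weights (limma adjusted p = 0.0483) and with samples of adjacent numbers as a block (limma adjusted p = 0.014), a pairing that no label states.

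Of the oxygen sensing genes, 1 of 4 fell (25%, against 15.7% of all genes tested) and the others did not pass. Epas1, which codes for HIF-2 alpha, was at 13.24, 13.41, 13.24 and 13.33 in the CD90-negative samples and at 11.6, 12.13, 12.1 and 12.08 in the CD90-positive samples. The CD90-negative values were tight, and sample 14 lay below the rest of its population. Epas1 fell from 13.3 ± 0.081 to 11.98 ± 0.25, by 1.33 (SE 0.12) or 2.51-fold (limma adjusted p = 6.93e-05). Without samples 13 and 14 the difference was -1.22 (limma adjusted p = 2.47e-05). Endothelial cells are known for high Epas1. Of 6 tested endothelial markers 2 fell (Lyve1 by 1.09 and Prox1 by 0.49) and 1 rose (Tek, by 1.84). The mean of the 7 measured was 6.1 to 6.72 and 6.15 to 6.78. Of these 7, 6 averaged under the negative controls over all 8 samples, with Prox1, Cdh5 and Kdr under them on both sides. Lyve1, at 6.99 ± 0.21 and 5.9 ± 0.19, had a mean over them in the CD90-negative population only. The part of endothelial RNA in the value of Epas1 was not tested.

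Hif1a, the gene of HIF-1 alpha, was at 11.08, 10.58, 11.05 and 10.9 against 10.67, 10.76, 10.73 and 10.84. Sample 15 was the lowest and the other CD90-negative samples the highest. The difference of -0.15, with a 95% interval of -0.41 to 0.1, did not pass (limma adjusted p = 0.338). Without sample 15 it was -0.26 and passed (limma adjusted p = 0.0402). Egln1, the main prolyl hydroxylase that senses oxygen, was at 9.36 ± 0.15 and 9.3 ± 0.096 (difference -0.06, 95% interval -0.26 to 0.15, limma adjusted p = 0.679).

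Egln3, a hydroxylase that hypoxia itself induces, was at 7.8, 6.45, 7.81 and 7.43 against 7.31, 7.34, 7.65 and 7.65. The spread of the CD90-negative samples, with sample 15 far below the others, was wider than the difference of 0.11 (limma adjusted p = 0.801). Without sample 15 the difference was -0.19 (limma adjusted p = 0.344).

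Of the 4 hypoxia targets 3 could be tested, and Ndrg1 alone passed (33.3%, against 29.6% of all genes tested). Ndrg1, a stress-response gene of differentiating cells that hypoxia induces, was at 12.1, 11.49, 11.66 and 11.54 against 12.5, 12.96, 12.46 and 12.67. Sample 13 came nearest to the CD90-positive range without reaching it. Ndrg1 rose from 11.7 ± 0.28 to 12.65 ± 0.22, by 0.95 (SE 0.16) or 1.93-fold (limma adjusted p = 0.00201). Ndrg1 is also known from myelinating glia, and enteric glia markers moved with it. All 7 tested of 9 listed rose, and their mean lay at 5.44 to 5.81 and 7.14 to 8.35. Of the 7, 4 averaged below the negative controls over all 8 samples. Gfap and Foxd3 had means under them in both populations. Sox10 and S100b had means over them with CD90, at 6.87 ± 0.29 and 6.88 ± 0.32. Kcna1 differed most, by 5.18. The part of glial RNA in the value of Ndrg1 was not tested.

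Bnip3, a mitophagy receptor gene, was at 7.56, 7.4, 7.63 and 7.55 against 8.05, 7.66, 7.77 and 7.57, and the difference of 0.22 did not pass (limma adjusted p = 0.153) and was 0.13 without sample 14. Ankrd37 was at 7.19, 7.05, 7.99 and 7.26 against 6.81, 6.51, 7.12 and 6.97. It overlapped between the populations, and its difference of -0.52, or -0.31 without sample 17, did not pass (limma adjusted p = 0.102), except with adjacent numbers as a block (limma adjusted p = 0.015). Car9, the carbonic anhydrase used as a marker of hypoxic tissue, was at 4.54 to 4.84 and 4.45 to 4.79, under the filter and the negative controls.

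Paralogs were set against each other within each sample, which shows unequal change and not which is more abundant; 7 pairs could be compared. The Epas1 value minus the Hif1a value was 2.16, 2.82, 2.19 and 2.44 against 0.93, 1.37, 1.37 and 1.24. The groups did not overlap and the change was -1.17 (two-sided exact permutation test, p = 0.0286, adjusted p = 0.1 over 7 pairs). Pfkp minus Pfkl also did not overlap, at 3.64 to 3.91 and 2.97 to 3.24, a change of -0.71 (exact permutation p = 0.0286, adjusted p = 0.1). The value 0.0286 is the smallest that 4 samples against 4 can give. The other 5 pairs overlapped: Pfkm minus Pfkl changed by -0.25 (exact permutation p = 0.0857), Hk2 minus Hk1 by 0.43 (exact p = 0.429), Aldoc minus Aldoa by 0.1 (exact p = 0.143), Ldhb minus Ldha by -0.02 (exact p = 0.914) and Egln3 minus Egln1 by 0.17 (exact p = 0.886). Aldoc was under the filter, so its pair sets a dim signal against Aldoa. Without sample 15 the change was 0.05 for Hk2 minus Hk1 and -0.21 for Egln3 minus Egln1. With single samples left out, Ldhb minus Ldha ran from -0.17 to 0.06.

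Several members spread more within a population than between the populations. Hk2, the inducible hexokinase gene, was at 9.91, 8.01, 9.64 and 9.36 against 9.61, 8.92, 10.04 and 9.69. Sample 15 lay more than a unit below every other CD90-negative sample, and sample 16 was the lowest with CD90. The difference of 0.33 had a 95% interval of -0.59 to 1.25 (limma adjusted p = 0.587) and was -0.07 without sample 15. Sample 15 was also the lowest of its population in Egln3, Pfkfb3, Pdha1 and Hif1a.

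Over the 28 tested members, sample 15 was the lowest CD90-negative sample in 16 (57.1%), against 31.2% of all genes tested. Sample 16 was the lowest CD90-positive sample in 15 (53.6%), against 27.1% of all genes. Sample 13 was the highest CD90-negative sample in 17 members (60.7%), against 24.8%. Markers of colon epithelium, with none of 8 past the test between the populations, had means of 10.61, 8.4, 9.03 and 8.84 in the CD90-negative samples. Their means in the CD90-positive samples were 8.88, 9.19, 9.4 and 10.58, so sample 14 and not sample 16 was the lowest there. The part of the epithelial markers in the members' spread was not tested. Without samples 15 and 16, a choice made after seeing the data, 4 enzymes fell, and Pfkm, Pgk1, Pdk1 and Pdk4 lost their calls (limma adjusted p = 0.077 to 0.138).

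**Figure D3:**
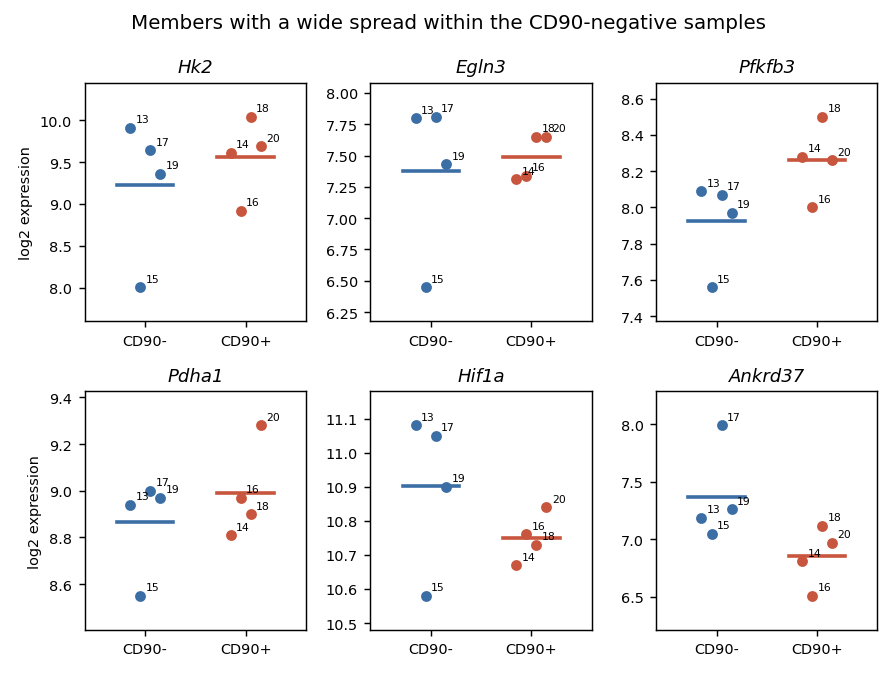
Log2 expression of 6 members in every sample, numbered as in the labels, with the population mean as a bar; each panel has its own scale. Sample 15 is the lowest CD90-negative sample in all 6 panels, with Hk2 at 8.01 and Egln3 at 6.45.

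The promoters of members from each outcome are shown because several are known HIF targets: Pfkp, Pgk1 and Pdk3, which fell, Pfkfb4, which rose, and Ldha, which did not pass. Pgk1 fell by its row with a chromosome 12 identifier. The window shown is that of the gene on chromosome X, whose own row did not pass (limma adjusted p = 0.0882). Each window is the 250 bases before the most upstream start that RefSeq lists (build GRCm38.p6), read 5′ to 3′ on the gene's strand. Capitals mark ACGTG or GCGTG, the core of the hypoxia response element, on either strand; on the other strand these read CACGT and CACGC, and CACGTG holds ACGTG on both strands. The windows are chr13:6648772-6649021 (minus strand) for Pfkp, chrX:106186850-106187099 (plus) for Pgk1, chrX:93832151-93832400 (minus) for Pdk3, chr9:108991652-108991901 (plus) for Pfkfb4 and chr7:46845554-46845803 (plus) for Ldha.
Pfkp: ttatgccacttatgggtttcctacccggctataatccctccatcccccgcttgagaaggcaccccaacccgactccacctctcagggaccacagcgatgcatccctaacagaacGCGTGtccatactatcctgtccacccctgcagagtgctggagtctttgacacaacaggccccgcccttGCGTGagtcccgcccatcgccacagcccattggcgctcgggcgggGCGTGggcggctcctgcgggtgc
Pgk1: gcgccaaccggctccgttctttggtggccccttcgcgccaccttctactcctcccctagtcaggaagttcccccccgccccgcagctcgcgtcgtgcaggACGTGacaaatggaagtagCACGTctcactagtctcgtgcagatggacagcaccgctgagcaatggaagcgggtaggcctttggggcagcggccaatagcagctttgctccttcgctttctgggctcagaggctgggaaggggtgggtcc
Pdk3: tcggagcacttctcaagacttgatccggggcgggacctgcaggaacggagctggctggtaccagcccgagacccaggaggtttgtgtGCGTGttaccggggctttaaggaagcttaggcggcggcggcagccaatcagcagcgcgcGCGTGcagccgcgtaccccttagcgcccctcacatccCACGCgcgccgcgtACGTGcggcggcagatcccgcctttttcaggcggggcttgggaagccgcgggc
Pfkfb4: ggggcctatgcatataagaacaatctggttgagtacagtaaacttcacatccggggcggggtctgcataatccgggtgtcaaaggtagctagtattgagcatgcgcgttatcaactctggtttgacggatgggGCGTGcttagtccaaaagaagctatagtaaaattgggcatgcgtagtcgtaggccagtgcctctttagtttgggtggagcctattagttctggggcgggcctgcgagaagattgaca
Ldha: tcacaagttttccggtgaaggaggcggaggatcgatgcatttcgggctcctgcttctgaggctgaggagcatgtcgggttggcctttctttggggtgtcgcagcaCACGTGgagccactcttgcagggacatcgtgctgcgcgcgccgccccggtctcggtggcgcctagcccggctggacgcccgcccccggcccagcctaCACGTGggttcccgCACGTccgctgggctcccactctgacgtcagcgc

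In Pgk1 the matches began 150 and 131 bases before the start, in Pfkfb4 the single match began 117 bases before it, and in Pfkp they began 136, 68 and 23 bases before it. Pdk3 held 4 matches, which began 163, 104, 67 and 53 bases before its start. Ldha, whose RNA differed by 0.04, held ACGTG in 5 readings, of which 4 make a pair of CACGTG palindromes. RefSeq windows were matched for 26 of the 28 tested members, all but Epas1 and Ndrg1. ACGTG occurred in 13 of the 26, against 21.1% of the 10403 tested genes with a window and 16.5% of all 27025 windows. Either motif occurred in 21 of 26 members (80.8%) and in 54.3% and 38.6% of those genes. By outcome, either motif was found in 6 of 8 members that fell, 2 of 2 that rose and 13 of 16 that did not pass. Here Pgk1 counts among those that fell, by its row with a chromosome 12 identifier. A match is a string of letters in this window and not a shown binding site.

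Other genes of glucose metabolism and the hypoxia response were counted by lists. Of 82 tested, 11 rose and 14 fell, together 30.5%, close to the 29.6% of all genes tested. In the citrate cycle 0 of 15 tested genes passed with limma, although Cs (-0.34) and Idh3g (-0.19) had an unadjusted p under 0.05, and their median difference was -0.09. Of 7 genes of the pyruvate dehydrogenase complex and its phosphatases, 1 passed: Dlat, the acetyltransferase, fell by 0.27 (limma adjusted p = 0.019), a call lost without sample 19 or 20 (up to 0.0592). In the pentose phosphate pathway 0 of 5 passed with limma, and 1, Taldo1 at -0.21, had an unadjusted p under 0.05.

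Among the transporters, 2 carriers of lactate and pyruvate rose. Slc16a7, the gene of the monocarboxylate transporter MCT2, was at 5.91, 6.04, 5.45 and 5.83 against 7.95, 8.01, 7.86 and 7.68. It rose by 2.07 (95% interval 1.77 to 2.36; limma adjusted p = 8.31e-06), from a level below the negative controls. Slc16a1, the gene of MCT1, was at 7.43, 5.99, 6.74 and 6.91 against 7.79, 7.69, 7.6 and 7.93, higher by 0.99 (limma adjusted p = 0.0211), and lost its call without sample 17 or 20 (up to 0.0584). The glucose transporter gene Slc2a3 fell by 0.42 (limma adjusted p = 0.0127; 0.0812 without samples 15 and 16), and Slc2a1 was at 10.12 ± 0.48 and 10.18 ± 0.3 (limma adjusted p = 0.896). The transporter list had 2 genes higher, 1 lower and 5 not past the test.

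Bpgm, which makes 2,3-bisphosphoglycerate in a side branch of glycolysis, was at 9.3, 9.82, 9.9 and 9.73 against 7.25, 7.77, 7.64 and 7.98. The populations lay more than a unit apart, and Bpgm fell by 2.03 or 4.08-fold (limma adjusted p = 5.49e-05). Tigar, a phosphatase that lowers fructose 2,6-bisphosphate, fell by 0.64 (limma adjusted p = 0.031), under the negative controls on both sides, with its call lost without any 1 of samples 14 and 16 to 20 (limma adjusted p up to 0.0821). Among 13 genes of gluconeogenesis and glycogen, 3 rose and 4 fell. Ugp2, which makes UDP-glucose, rose by 0.96 and the glycogen phosphorylase gene Pygl by 0.51, while Pgm1, a phosphoglucomutase gene, fell by 0.49 and Pck2, the mitochondrial carboxykinase gene, by 0.46 (limma adjusted p = 0.000157, 0.00873, 0.00228 and 0.00173).

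Of 23 other hypoxia targets, 4 rose (17.4%) and 6 fell (26.1%), where 14.0% and 15.7% of all genes tested did. Vegfa, the vascular growth factor gene, was at 13.28, 13.35, 13.23 and 13.13 against 10.93, 10.87, 10.88 and 10.96. It fell by 2.33 or 5.04-fold (limma adjusted p = 1.34e-07). The lysyl hydroxylase gene Plod1 fell by 1.05 (limma adjusted p = 3.48e-05). Errfi1, an inhibitor of the EGF receptor, rose by 1.44, and P4ha2, a collagen prolyl hydroxylase gene, by 0.38 (limma adjusted p = 0.000704 and 0.0114). Of 5 other genes of oxygen sensing, Hif3a and Egln2 rose by 0.33 and 0.22 (limma adjusted p = 0.0237 and 0.0315) and 0 fell. Hif3a lay below the negative controls, and both lost their calls without several single samples (limma adjusted p up to 0.0653 and 0.0912). Immediate-early genes, known to respond to tissue dissociation, moved with the populations: 6 of 8 tested rose and 0 fell, with Atf3 at 1.29 and list means of 14.2 to 14.62 and 14.88 to 15.1, and their part in the hypoxia genes was not tested.

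**Figure D4:**
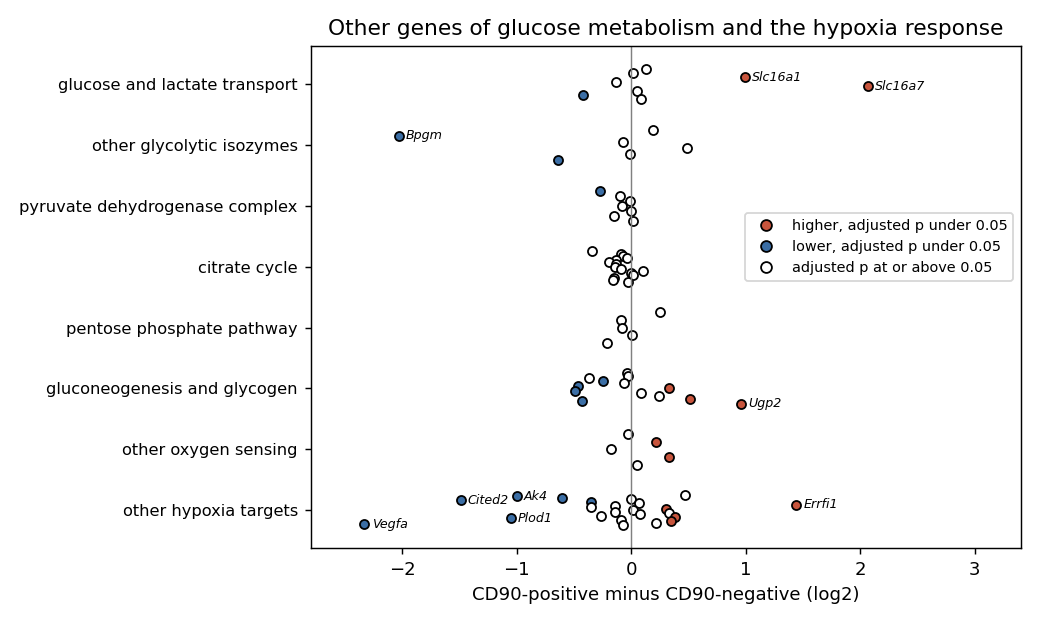
Differences of 82 further genes by list, CD90-positive minus CD90-negative on the log2 axis, coloured where the limma adjusted p was under 0.05; genes with a difference over 0.9 in size are named. The citrate cycle genes lie close to 0, while Slc16a7 lies at 2.07, Bpgm at -2.03 and Vegfa at -2.33.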

How the data were processed

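RNA of 8 sorted samples, 4 per population, was measured on 1 Affymetrix mouse transcriptome array each. Per the labels' protocols, 2 ng of RNA was amplified and labelled. The authors deposited log2 values, and the submitters' processing notes name RMA and version 1.1 of Affymetrix Expression Console; settings and genome build are not given in the sources used here. Of 65956 transcript clusters, 31221 named 1 gene in the platform annotation, 1529 several and 33206 none. Symbols were updated through RefSeq (GRCm38.p6).

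A cluster was kept where 4 or more of the 8 samples reached 5.36, the overall median, and the brightest cluster stood for a gene. The 17232 genes were tested with limma 3.58.1 (lmFit, eBayes) in R 4.3.3, two-sided, without a block, calling genes at a Benjamini-Hochberg adjusted p under 0.05. Paralog pairs were compared by two-sided exact permutation over 70 assignments. All members were named, and of each related list up to 2 called genes per direction by smallest p, the 5 genes of the sort gate, and of marker lists those with the highest mean or largest difference where a list bears on a member; Taldo1, Slc2a1, Cs, Idh3g, Cdh5, Kdr, Lyve1 and Prox1 were chosen after their values were seen. On simulated data for this comparison (17232 genes, 200 changed), limma recovered 37.3%, 94% and 100% of differences of 0.5, 1 and 2 (log2). In the real data 5105 genes passed, so the adjustment was stricter in the simulation, and these shares need not hold for the real data. The members and lists were chosen with earlier results of these data known. Alternatives changed the normalization, filter, cluster choice, variance model, weights, block and samples. Figures used matplotlib 3.10.9.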

Additional observations from a re-analysis of the deposited data

Results flagged for a closer look

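In 3 of 60 groups of 4 samples (30 measured members, 2 populations), 1 sample lay far from the other 3 by the gap to its neighbour over the whole range; chance gives about 1 in 20 such groups. Epas1 was at 11.6 in CD90-positive sample 14 and at 12.08 to 12.13 in the other 3. Pdha1 was at 8.55 in CD90-negative sample 15 and at 8.94 to 9 in the others. Pdk2 was at 7.57 in CD90-positive sample 14 and at 7.46 to 7.48 in the others.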

How the results depend on the processing

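Of the 12 members past the threshold, 8 (Pfkp, Tpi1, Pgam1, Pkm, Pdk3, Pfkfb4, Epas1 and Ndrg1) kept direction and call in all 19 alternatives, of which the Pgk1 row of chromosome X and leaving out samples 15 and 16 were chosen after seeing the data. The number of enzymes that fell ran from 4 to 6 with 1 sample left out, was 4 after quantile normalization again, and 0 rose in any alternative. The number of flux switches that rose was 1 to 2 with 1 sample left out and 1 without samples 15 and 16; the number that fell was 1 without those samples and 1 with the filter at the negative controls, where Pdk1 was not tested. Oxygen sensing genes that fell numbered 1 to 2 with 1 sample left out, and hypoxia targets that fell 1 with adjacent title numbers as a block. Pfkm and Pgk1 lost their calls after quantile normalization again (limma adjusted p = 0.0692 and 0.0859), and Pgk1 without samples 13 and 14 (0.0592). The labels state no pairing, since the populations share no number and no sample is tied to a mouse. The block of adjacent title numbers is therefore an assumption; among the members it added Pfkfb3 and Ankrd37 to the calls (limma adjusted p = 0.014 and 0.015) and ended none.

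Signs turned only in values that had not passed. With each array centred on its median, Ldha was at -0.01, Ldhb at -0.03 and Pdpn at -0.01; without samples 13 and 14 Ldhb was at -0.06; without samples 15 and 16 Ldha was at -0.02, Egln3 at -0.14 and Epcam at -0.04; with array weights Egln1 was at 0.01; Ldhb minus Ldha was 0.02 after quantile normalization again; without samples 15 and 16 Ldhb minus Ldha was 0.13 and Egln3 minus Egln1 -0.12. With 1 sample left out, Egln3 minus Egln1 ran from -0.21 to 0.34, Ldhb minus Ldha from -0.17 to 0.06, Hk2 from -0.07 to 0.56, Ldhb from -0.06 to 0.07, Egln1 from -0.09 to 0.01, Egln3 from -0.19 to 0.26, Pdpn from -0.07 to 0.12 and Epcam from -0.26 to 0.52. The cause was not tested. The share of genes called ran from 16.2% without a filter to 40.7% with array weights.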

Other observations

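Rows that name a member together with another gene stayed out of the comparisons. The row of Pfkfb2 with C4bp-ps1 was at 7.31 ± 0.067 and 7.6 ± 0.093, and its populations did not overlap (7.23 to 7.36 and 7.48 to 7.68). The row of Gapdh with Gm7336 was at 16.31 ± 0.14 and 15.99 ± 0.25, and the rows of Pgam1 with Gm8910 and with Pgam1-ps2 were both lower by 0.48 in CD90-positive samples, a difference of -0.48 beside -0.39 for the row that names Pgam1 alone. The second Hif1a row, shared with Gm15283, was at 5.14 ± 0.18 and 5.18 ± 0.058.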
